A study of Homo sapiens with 12 samples.

Results

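Cathepsins are proteases of the lysosome and of related acidic compartments, and CTSZ and 9 other cathepsin genes were followed in PC-3 cells with altered PIM1 and NFATC1. The members were CTSZ, CTSA, CTSB, CTSC, CTSD, CTSH, CTSK, CTSL, CTSS and CTSV, taken as every gene-measuring probe on the array whose RefSeq transcript belongs to 1 of these genes. They were read by 13 probes, and 9 of the 10 genes were among the 25473 genes that passed the filter on dim probes. CTSZ was selected on measured values, since it was lower with wild-type than with multi-mutant NFATC1 both without and with stable PIM1. Its differences between these forms are therefore given as a description with no test.

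PC-3 is an established androgen-independent prostate cancer cell line, and the authors report that it expresses NFATC1 endogenously. Every sample carried a stable plasmid selected with G418, either the empty vector or a PIM1 expression vector, together with a red fluorescent marker plasmid, and each stable line was a pool of selected cells. There were 6 groups of 2 samples: control (empty vector), PIM1 (stable PIM1), WT and MM (empty vector cells that also received wild-type or multi-mutant NFATC1 by transient transfection), and PIM1 + WT and PIM1 + MM (stable PIM1 cells transfected in the same way). In multi-mutant NFATC1 the serines and threonines that PIM1 phosphorylates are replaced by alanine. The labels name no transient mock transfection for the control and PIM1 groups, so an effect of transfection and one of NFATC1 cannot be told apart when WT or MM cells are set against untransfected ones. Likewise, other differences between the 2 stable lines cannot be told apart from PIM1 itself. No source used here states that the 2 samples of a group came from separate cultures, so the p-values measure only the spread between these samples, which may be technical.

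PIM1 is a serine/threonine kinase, and NFATC1 is a transcription factor that the phosphatase calcineurin activates. Cathepsins are made as inactive precursors, sorted to the lysosome by mannose 6-phosphate receptors and activated at low pH, and tumour cells can also secrete them. Most are cysteine proteases of the papain family (CTSB, CTSC, CTSH, CTSK, CTSL, CTSS, CTSV and CTSZ), whereas CTSD is an aspartic protease and CTSA a serine carboxypeptidase. In osteoclasts, NFATC1 is known as a driver of CTSK, the main collagen-degrading enzyme of bone resorption.

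RefSeq promoters of GRCh38.p14, running from 250 bases before to 50 bases after the start of the gene except for CTSV, were matched for 7 of the 10 members. Shown are those of CTSZ, the gene with the largest differences, and of CTSA and CTSD, the 2 other members with the largest differences between the NFATC1 forms in stable PIM1 cells. They were searched on both strands for GGAAA, the core that NFAT factors bind, and for CACGTG, the core of the element that the lysosomal regulator TFEB binds. Capitals mark the matches. CTSZ lies on the minus strand of chromosome 20 from 58995185 to 59007254, and its promoter (chr20:59007205-59007504, minus strand), CTSA's (chr20:45891085-45891384, plus strand) and CTSD's (chr11:1763878-1764177, minus strand) read 5′ to 3′ as follows.
CTSZ: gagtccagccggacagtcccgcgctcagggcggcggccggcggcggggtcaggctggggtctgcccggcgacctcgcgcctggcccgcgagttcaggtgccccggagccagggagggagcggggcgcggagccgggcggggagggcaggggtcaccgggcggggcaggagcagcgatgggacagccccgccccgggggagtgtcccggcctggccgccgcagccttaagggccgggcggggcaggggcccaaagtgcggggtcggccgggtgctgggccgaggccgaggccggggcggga
CTSA: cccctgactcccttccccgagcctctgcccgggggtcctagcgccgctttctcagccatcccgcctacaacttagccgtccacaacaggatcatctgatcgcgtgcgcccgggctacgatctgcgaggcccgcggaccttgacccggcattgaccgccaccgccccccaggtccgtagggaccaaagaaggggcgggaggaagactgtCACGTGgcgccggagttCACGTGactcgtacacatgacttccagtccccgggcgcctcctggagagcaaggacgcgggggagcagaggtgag
CTSD: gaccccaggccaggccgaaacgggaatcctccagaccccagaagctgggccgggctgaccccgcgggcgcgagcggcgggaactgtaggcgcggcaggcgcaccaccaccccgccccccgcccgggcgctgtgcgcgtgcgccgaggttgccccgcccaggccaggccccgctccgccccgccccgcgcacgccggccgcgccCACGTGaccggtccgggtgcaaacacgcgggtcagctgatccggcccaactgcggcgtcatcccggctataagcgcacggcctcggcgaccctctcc
The CTSZ window held 0 matches to either motif and was 81% G and C. The CTSA window held 2 matches to CACGTG and the CTSD window held 1, against 7.26% of all 35116 promoters with at least 1. The GGAAA core was found in the CTSC and CTSV windows and in 61.2% of all promoters, and the CTSL and CTSH windows held neither motif. The CTSV window, from 97039093 to 97039392 on the minus strand, lay inside the gene, whose start is at 97039643. These matches describe letters in a window and not occupied sites.

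The arrays carried 2 dyes and no dye swap, so Cy3 read the control, WT and PIM1 + WT groups, and Cy5 the PIM1, MM and PIM1 + MM groups. Each array held a pair of groups (control with PIM1, WT with MM, PIM1 + WT with PIM1 + MM), and each of the 2 slides held 1 sample of every group. The median raw intensity of a Cy3 channel ranged from 86 to 139 and that of a Cy5 channel from 176 to 318, and with 6 arrays every value has limited precision. Levels below are log2 intensities after quantile normalization, on which a difference of 1 is a doubling, and differences are log2 fold changes from limma with a standard error (SE). Genes with a Benjamini-Hochberg adjusted p under 0.05 are referred to as called. The NFATC1 transcript, the target of the transfection, was read by 2 probes. With 1 of them its mean level was 6.87 in control, 7.77 in WT and 11.29 in MM cells, and with stable PIM1 it was 6.38 in PIM1 cells, 7.97 with the wild-type and 11.95 with the mutant form, so it was far higher with the mutant than with the wild-type form. With the other it was 8.28 in WT and 8.39 in MM cells, the highest group. It was 7.19 in PIM1 + WT cells, the lowest group, and 7.34 in PIM1 + MM cells. Whether either NFATC1 probe lies inside the vectors' inserts is not known here. The single PIM1 probe had means of 9.95 in control and 10.20 in PIM1 cells, 10.16 in WT and 9.93 in PIM1 + WT cells, and 10.13 in MM and 10.29 in PIM1 + MM cells. The PIM1 probe was thus lower in the stable PIM1 line where wild-type NFATC1 was present, and whether it lies inside the vector's insert is not known here. The authors report that real-time qPCR of the microarray samples showed overexpression of PIM1, NFATC1 or both. The array of control and PIM1 replicate 1 stood somewhat apart, with a mean correlation of 0.986 and 0.985 with the other samples against at least 0.989 for every other sample. The epithelial genes KRT8, KRT18 and EPCAM were well above background in every sample. The prostate secretory marker KLK3 and the macrophage marker CD163 were so in none. PTPRC and CD14 of the white blood cell list, however, were well above background in all 12 samples. PTPRC was dim, with group means from 6.46 to 6.64, near those of CD163 at 6.23 to 6.35. Group means of CD14 ran from 7.57 to 7.93. Their part in the results was not tested.

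CTSZ, a carboxypeptidase that removes single residues from the end of proteins, varied more than any other member. Its level in the 2 replicates was 10.08 and 9.97 in control cells, 9.21 and 9.17 in WT cells and 10.61 and 10.47 in MM cells. In the stable PIM1 line it was 8.88 and 8.64 without transfected NFATC1. It was 7.84 and 7.85 in PIM1 + WT cells and 9.20 and 9.29 in PIM1 + MM cells. In RNA of whole cultures, fewer cells with CTSZ and less CTSZ per cell cannot be told apart. MM cells were highest and PIM1 + WT cells lowest. The order ran MM, control, PIM1 + MM, WT, PIM1, PIM1 + WT, and only PIM1 + MM and WT overlapped, with means of 9.25 and 9.19. The other neighbours in this order were separated by between 0.43 and 0.91.

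**Figure D1:**
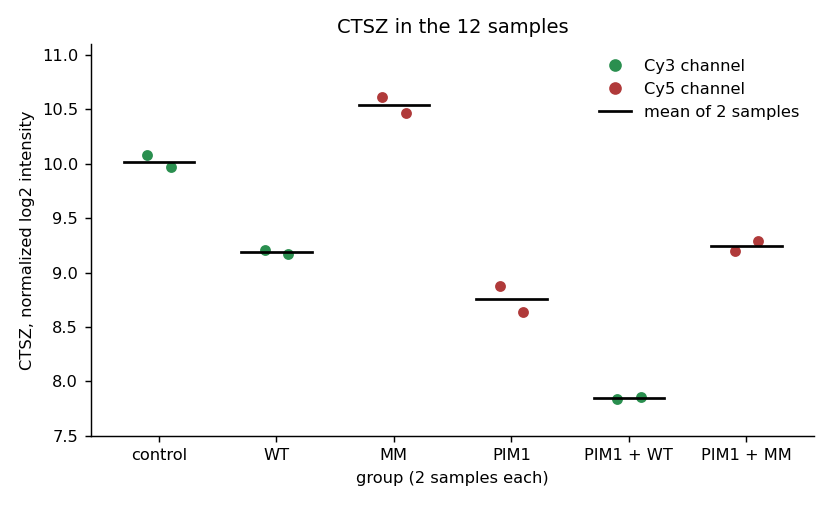
Normalized log2 intensity of CTSZ (vertical axis) in the 6 groups (horizontal axis), with 1 point per sample, a bar at the mean of the 2 samples and colour for the dye. The wild-type form lies below the matching cells without transfected NFATC1 and the multi-mutant form above them. The 2 PIM1 + WT samples at 7.84 and 7.85 are the lowest of all.

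On both slides CTSZ was lower with the wild-type than with the mutant form, with WT minus MM differences of -1.40 and -1.31 and a mean log2 fold change of -1.35. In stable PIM1 cells the wild-type form again gave less, with differences of -1.36 and -1.44 and a mean of -1.40. Among all 25473 genes these were the second and the fifth lowest values. The 2 values differed by -0.05, which is given with no test since both were used in the selection. Each of these comparisons sets a Cy3 against a Cy5 channel. The NFATC1 probe given first above was far higher with the mutant form, whereas the other NFATC1 probe differed little between the forms. The part of NFATC1 transcript level in the difference was not tested.

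CTSZ was also compared where both groups carried the same dye. In Cy3, WT cells were lower than control cells by 0.87 and 0.80 on the 2 slides, and the mean difference of -0.84 was the 17th lowest of all genes. In Cy5, PIM1 + MM cells were higher than PIM1 cells by 0.33 and 0.65, with a mean difference of 0.49, which was 0.34 after loess with Aquantile and 0.82 with the processed signal. So CTSZ fell below the cells without transfected NFATC1 with the wild-type form and lay above them with the mutant form, each time read in a single dye. Subtracting the second difference from the first gives a contrast from which any constant offset between the dyes cancels for each gene, although it mixes the 2 stable lines. It was -1.19 and -1.45 on the slides, with a mean of -1.32 and an SE of 0.12, beside a mean of -1.38 for the 2 comparisons of WT with MM across dyes. The term that separates these values was 0.05 for CTSZ. This term equals a Cy5 minus Cy3 offset only where the stable PIM1 effect without transfected NFATC1 equals its mean over the 2 forms. Over all genes the absolute size of the term had a median of 0.13, and 78.2% of genes had one at least as large as that of CTSZ. With Cy3 and Cy5 read alone, 0.204% of all genes were called in WT minus control and 12.4% in PIM1 + MM minus PIM1, and 6.19% in the dye-cancelling contrast.

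Stable PIM1 went with less CTSZ in each of the 3 backgrounds. PIM1 minus control was -1.20 and -1.33 on the 2 slides, with a mean log2 fold change of -1.27 (SE 0.09, limma adjusted p = 1.93e-05). This comparison shares no sample with those on which CTSZ was selected, though 25.1% of all genes were called in it and CTSZ was the 99th from the lowest. Of all genes, 1.17% were both called and changed by 1 or more in absolute log2 fold change, as CTSZ was. Within Cy3, PIM1 + WT minus WT was -1.37 and -1.31, and within Cy5, PIM1 + MM minus MM was -1.41 and -1.18. The means of -1.34 and -1.29 were close to that without transfected NFATC1.

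**Figure D2:**
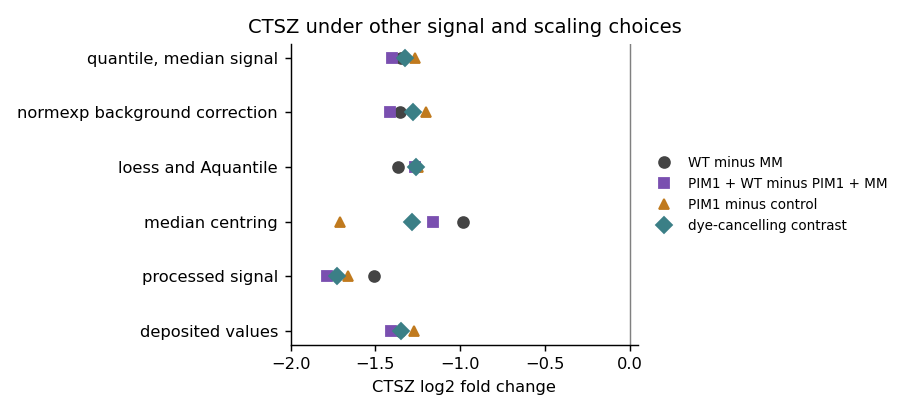
CTSZ log2 fold change (horizontal axis) in 4 comparisons (symbols) under the quantile-normalized median signal and 5 other choices of signal or scaling (vertical axis). Every value lies below 0, the closest being -0.99 for WT minus MM after median centring.

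None of the other members was called lower with the wild-type form in cells without stable PIM1 by limma. Of the 8 tested, 0 were called in WT minus MM, where 0.793% of all genes were called, and 0.0118% when an absolute log2 fold change of 1 or more was also required. At an unadjusted p under 0.05, 4 of the 8 stood out (CTSA, CTSD and CTSK higher, CTSL lower), beside 3037 of all 25473 genes. The values of the 8 ranged from -0.22 to 0.35 with a median of 0.04, against a median of 0.00 over all genes. CTSL, an endopeptidase, had the lowest value (-0.22, SE 0.08, limma adjusted p = 0.329), and CTSD the highest (0.35, SE 0.08, limma adjusted p = 0.113). In stable PIM1 cells 3 of 8 were called between the forms, CTSD and CTSA higher and CTSV lower with the wild-type form, where 16.1% of all genes were called. None of the 8 reached an absolute log2 fold change of 1 there, whereas 0.345% of all genes were called with one. Read in Cy3 alone, 0 of the 8 were called by limma in WT minus control, with 3 at an unadjusted p under 0.05. Over all 25473 genes, 52 were called there and 2737 had such an unadjusted p. Hence CTSZ lay on the other side of 0 from CTSD and CTSA.

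**Figure D3:**
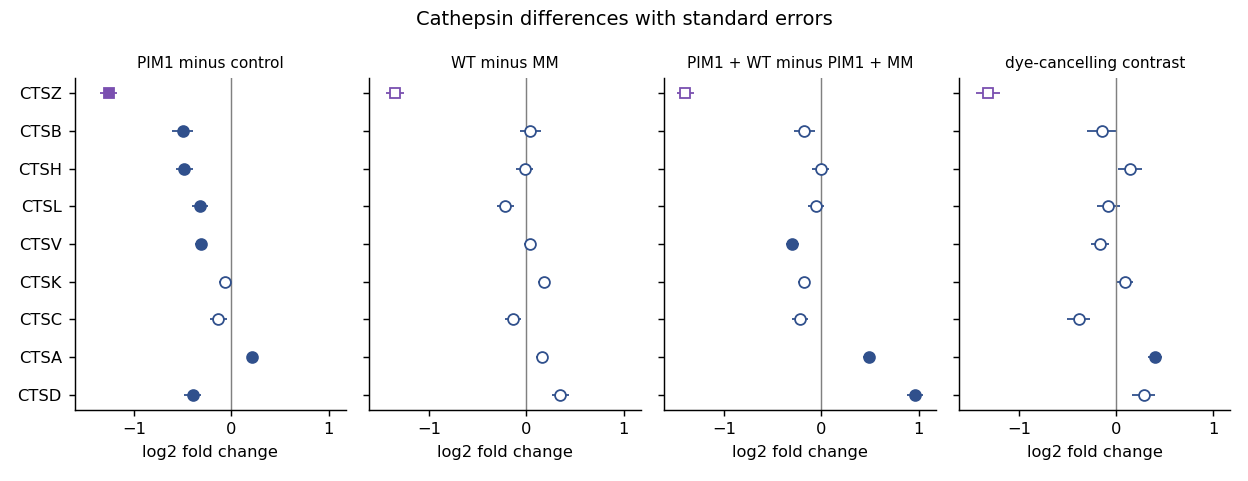
Log2 fold change with its standard error (horizontal axis) for the 9 tested members (vertical axis) in 3 comparisons and the dye-cancelling contrast. Squares are CTSZ and circles the other members. Filled symbols passed the adjusted p threshold, and CTSZ is unfilled wherever its selection used the samples. CTSZ lies below -1 in each panel, whereas the 8 others lie between -0.50 and 0.96.

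CTSD, the main aspartic protease of the lysosome, showed the largest difference among the other members. Its level was 11.95 and 12.06 in control, 12.33 and 12.30 in WT and 11.98 and 11.95 in MM cells. With stable PIM1 it was 11.74 and 11.48 without transfected NFATC1. It was 12.57 and 12.62 in PIM1 + WT cells and 11.60 and 11.66 in PIM1 + MM cells. Thus PIM1 + WT cells stood above all others, while PIM1 and PIM1 + MM cells overlapped at the low end. CTSD differed between PIM1 + WT and PIM1 + MM cells by 0.96 (SE 0.08, limma adjusted p = 0.000163), and this exceeded its difference between WT and MM cells by 0.61 (SE 0.12, limma adjusted p = 0.0365). It was the only 1 of the 8 other members called in this interaction, beside 2.21% of all genes. The call in the interaction was lost on removal of any 1 of its 8 samples. Values within a dye were smaller. PIM1 + MM minus PIM1 was 0.02 (SE 0.08, limma adjusted p = 0.882), WT minus control 0.31 (SE 0.08, limma adjusted p = 0.224), and the dye-cancelling contrast 0.28 (SE 0.12, limma adjusted p = 0.222).

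CTSA protects beta-galactosidase and the sialidase NEU1 in a complex of the lysosome, apart from its own carboxypeptidase activity. As the median of its 2 probes its level in PIM1 + WT cells exceeded that in PIM1 + MM cells by 0.49 (SE 0.05, limma adjusted p = 0.000466), and it was the only 1 of the 8 called in PIM1 + MM minus PIM1 (-0.33, adjusted p = 0.00619) and in the dye-cancelling contrast (0.40, adjusted p = 0.0177 by limma). The last call was lost without either WT sample or without control replicate 2, at adjusted p of 0.0957, 0.0735 and 0.0614. The 2 probes did not behave alike. The probe to NM_001127695 read 12.56 and 12.52 in PIM1 + WT, and 11.65 and 11.61 in PIM1 + MM cells, a difference of 0.91 (SE 0.06, limma adjusted p = 5.05e-05 over all probes). In WT and MM cells this probe read 11.92 and 11.92, and 11.58 and 11.63, a difference of 0.32 (SE 0.06, limma adjusted p = 0.05, just inside the threshold). The probe to NM_000308 read 14.95 and 14.88 in PIM1 + WT, and 14.84 and 14.86 in PIM1 + MM cells, a difference of 0.06 (SE 0.06, limma adjusted p = 0.544). Only in PIM1 minus control did both give nearly the same value, 0.21 and 0.21.

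CTSC, the dipeptidyl peptidase that activates serine proteases of immune granules, was read by 3 probes that differed in direction. In PIM1 minus control the probe to NM_001114173 gave 0.70 (SE 0.11, limma adjusted p = 0.00176) and that to NM_001814 gave 0.25 (SE 0.06, limma adjusted p = 0.018). The probe to NM_148170 gave -0.25 (SE 0.11, limma adjusted p = 0.135). The median over probes was -0.13 and was not called, and different probes supplied it in different samples. In PIM1 + WT minus PIM1 + MM the probes again differed in sign, with 0.32 (limma adjusted p = 0.00918) from the probe to NM_001814, -0.05 from NM_001114173 and -0.29 from NM_148170, the last 2 not called. Which transcripts each probe detects was not tested, as probe sequences were not used here.

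**Figure D4:**
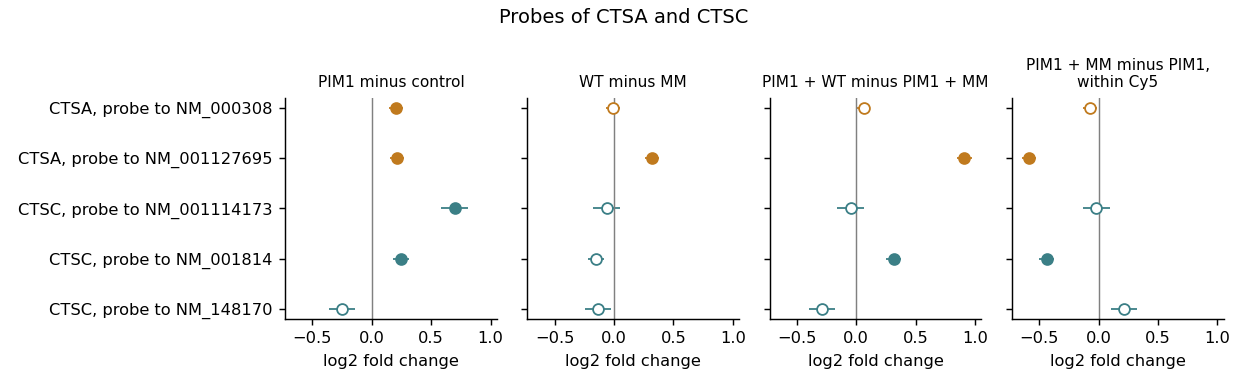
Log2 fold change with its standard error (horizontal axis) of the 2 CTSA and 3 CTSC probes (vertical axis) in 4 comparisons. Filled symbols passed the adjusted p threshold over all probes. The 2 CTSA probes coincide in PIM1 minus control and separate in the other panels, and the CTSC probes lie on both sides of 0 in each panel except WT minus MM, where all 3 are below it.

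Stable PIM1 went with lower levels of several cysteine cathepsins. Of the 8 other members, 5 were called lower and 1 higher in PIM1 than in control cells, beside 25.1% of all genes called, and their median was -0.32 against 0.01 over all genes. CTSB, an exopeptidase and endopeptidase of the lysosome, had levels of 10.55 and 10.38 in control and 10.14 and 9.79 in PIM1 cells, which did not overlap (-0.50, SE 0.11, limma adjusted p = 0.00803). CTSH, an aminopeptidase, had levels of 11.86 and 11.97 in control and 11.29 and 11.57 in PIM1 cells (-0.49, SE 0.09, limma adjusted p = 0.003). CTSL fell from 11.88 and 11.70 to 11.57 and 11.37 (-0.32, SE 0.08, limma adjusted p = 0.0193), but with the processed signal the difference was -0.12 and was not called (adjusted p = 0.359). CTSV, its close relative, fell from 9.84 and 9.88 to 9.63 and 9.46 (-0.31, SE 0.07, limma adjusted p = 0.00655). Cross-hybridization between these related genes was not tested. CTSD was lower by 0.40 (SE 0.08, limma adjusted p = 0.00708), and with the processed signal by 0.21, which was not called (adjusted p = 0.117). CTSA was the 1 member called higher, by 0.21 (SE 0.05, limma adjusted p = 0.0177), but median centring turned its sign to -0.53. With median centring the 5 lower members lay between -1.20 and -0.83, while the median of all genes moved from 0.01 to 0.13. The processed signal left 4 of the 8 members called, beside 6829 of all 25473 genes. With the filter in all 12 channels, 6 of the 8 were called, beside 7326 of 17833 genes. Without control replicate 1, 3 of the 8 members rather than 6 were called, with CTSA, CTSB and CTSL lost. CTSA and CTSL were also lost without PIM1 replicate 2, and CTSA and CTSD without control replicate 2.

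**Figure D5:**
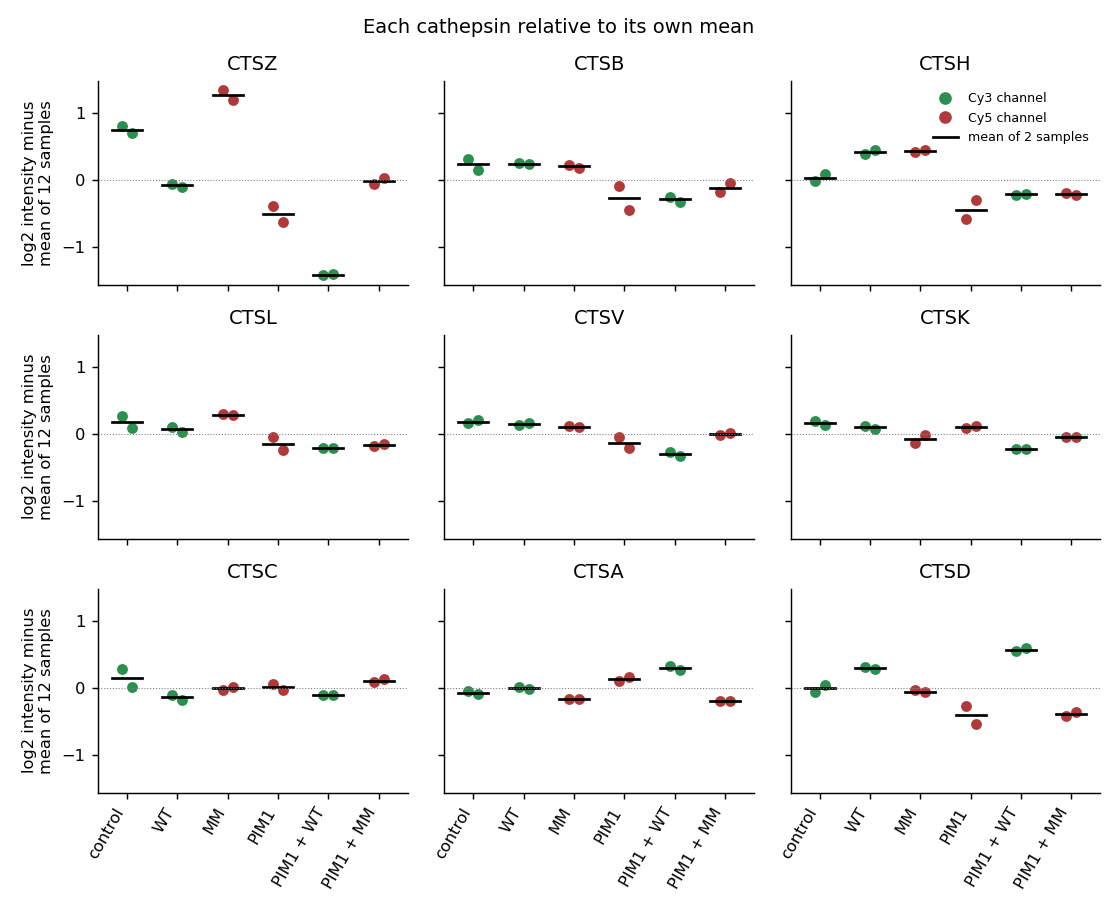
Log2 intensity of each tested member minus its own mean over 12 samples (vertical axis) by group (horizontal axis), with 1 point per sample, bars at group means and colour for the dye. CTSZ spans the widest range, CTSB, CTSH, CTSL and CTSV sit lower in the 3 stable PIM1 groups than in MM and WT, and CTSD stands highest in PIM1 + WT.

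The same direction was seen where the dye was held fixed. Within Cy3, 7 of the 8 were called between PIM1 + WT and WT cells, 5 lower and 2 higher, beside 27.4% of all genes. The 5 were CTSH (-0.63), CTSB (-0.53), CTSV (-0.45), CTSK (-0.33) and CTSL (-0.29), with adjusted p between 0.000648 and 0.0283 by limma. CTSA (0.30) and CTSD (0.28) were the 2 higher ones, and CTSD changed sign to -0.032 with median centring and CTSA to -0.018 in its probe to NM_000308. Within Cy5, 3 of the 8 were called between PIM1 + MM and MM cells, all lower, beside 19.4% of all genes. These were CTSH (-0.64, SE 0.09, limma adjusted p = 0.00105), CTSL (-0.45, SE 0.08, limma adjusted p = 0.00506) and CTSD (-0.33, SE 0.08, limma adjusted p = 0.0229). The calls of CTSD within either dye and of CTSL within Cy3 were lost on removal of any 1 of the 4 samples compared. With all samples, CTSH and CTSL were called lower with stable PIM1 in all 3 backgrounds. CTSB and CTSV lay below 0 in all 3 as well, but within Cy5, at -0.32 and -0.11, they were not called. Of the 3 epithelial genes, EPCAM moved with these values, at -0.68 in PIM1 minus control, -0.76 within Cy3 and -0.40 within Cy5 (limma adjusted p = 0.000429, 0.000204 and 0.00982), and at -0.33 in PIM1 + WT minus PIM1 + MM (adjusted p = 0.0293). KRT8 was called higher with stable PIM1 within Cy3 (0.40) and Cy5 (0.25). Of the 4 white blood cell genes only CD14 was called in any of these comparisons, higher within Cy5 (0.36, limma adjusted p = 0.00728). Their part in the cathepsin values was not tested. CTSH had nearly the same level with both NFATC1 forms, 12.26 and 12.32 in WT and 12.29 and 12.33 in MM cells, and likewise 11.65 and 11.66 in PIM1 + WT and 11.68 and 11.65 in PIM1 + MM cells.

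CTSK, the osteoclast collagenase, was called between neither pair of NFATC1 forms. Its level was 8.46 and 8.40 in control, 8.39 and 8.34 in WT, 8.13 and 8.25 in MM and 8.35 and 8.38 in PIM1 cells. In PIM1 + WT cells it was 8.04 in both samples and in PIM1 + MM cells 8.22 in both. WT minus MM was 0.18 (SE 0.06, limma adjusted p = 0.246) and PIM1 + WT minus PIM1 + MM was -0.18 (SE 0.06, limma adjusted p = 0.0719). CTSV was the member called lower with the wild-type form in stable PIM1 cells (-0.30, SE 0.07, limma adjusted p = 0.0144), which median centring moved to 0.0094 and loess with Aquantile to -0.17 (adjusted p = 0.115, not called). With the processed signal it was -0.25 and likewise not called (adjusted p = 0.136). This call was lost without either PIM1 + WT sample and without PIM1 + MM replicate 2, at adjusted p between 0.0602 and 0.103. CTSS, the cathepsin of antigen-presenting cells, did not exceed the threshold for dim probes, the 90th percentile of negative controls, in any of the 12 channels, with raw intensities from 30 to 41 in Cy3 and from 110.5 to 120 in Cy5. It has no level here beyond that bound.

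Over the 12 samples, the values of CTSL, CTSV, CTSB and CTSH ran parallel to those of CTSZ, with Pearson's r of 0.87, 0.85, 0.77 and 0.61. CTSA had an r of -0.84. These are descriptions over samples that fall into 2 stable lines, 2 dyes and shared arrays. Among 1766 genes with a range of at least 1, those with the highest r were STMP1 (0.97), PPP3R1 (0.97), POLE2 (0.94), EMSY (0.94) and ZCCHC10 (0.93). After the mean of each dye was subtracted, PPP3R1 was first with an r of 0.99, followed by SCARNA13, SPC25, SCARNA16 and TEPSIN, each at 0.98. The wild-type and mutant forms were read in different dyes, so this r ignores any part of their difference that goes with the dye. WT minus MM was 0.17 for SCARNA13, 0.23 for SPC25, 0.098 for SCARNA16 and 0.22 for TEPSIN, but -1.35 for CTSZ. PIM1 + WT minus PIM1 + MM was -0.19, -0.03, -0.27 and -0.02 for these genes in the same order, but -1.40 for CTSZ. PPP3R1 encodes the regulatory B subunit of calcineurin. Its mean levels were 7.96 in control, 7.59 in WT and 8.09 in MM cells. Among stable PIM1 cells they were 7.21 without transfected NFATC1, 7.09 with the wild-type and 7.51 with the mutant form. Its span was smaller than that of CTSZ, with differences of -0.49 in WT minus MM and -0.41 in PIM1 + WT minus PIM1 + MM.

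Of the genes within 200 kb of CTSZ on chromosome 20, GNAS-AS1, GNAS, NELFCD, TUBB1, ATP5F1E and PRELID3B were tested, and 0 were called by limma in WT minus MM or in PIM1 + WT minus PIM1 + MM, while 1 and 2 had an unadjusted p under 0.05. Over all 25473 genes 0.793% and 16.1% were called in these comparisons, and 3037 and 7256 had an unadjusted p under 0.05. In PIM1 minus control, NELFCD (0.50, SE 0.13, limma adjusted p = 0.0189) and PRELID3B (0.24, SE 0.07, limma adjusted p = 0.0347) were called higher, opposite to CTSZ, though median centring turned both below 0.

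Of 5 further cathepsins on the array, only CTSO was called in any of the 3 cross-dye comparisons, in the 1 of them in which 16.1% of all genes were called. It was at 8.15 and 8.01 in PIM1 + WT and at 8.56 and 8.55 in PIM1 + MM cells (-0.48, SE 0.06, limma adjusted p = 0.00133), the same direction as CTSZ. With median centring its difference was -0.25 and was not called. In PIM1 minus control 2 of the 5 were then called, beside 8699 of all 25473 genes. Its levels in WT cells, 8.51 and 8.48, lay close to those in MM cells, 8.55 and 8.52. CTSF and CTSW were not well above background in any sample.

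Other lysosomal genes were read in the same comparisons. Of 35 lysosomal hydrolases, 0 were called in WT minus MM by limma, beside 0.793% of all genes. An unadjusted p under 0.05 was found for 9 of the 35, beside 3037 of all 25473 genes. In PIM1 + WT minus PIM1 + MM, beside 16.1% of all genes, 10 were called higher and 6 lower, with a median of -0.01 against -0.03 over all genes. Those with the largest changes were higher with the wild-type form. They were MAN2B1, an alpha-mannosidase (0.82, SE 0.10, limma adjusted p = 0.000912), PSAP, the precursor of the saposins (0.79, SE 0.07, limma adjusted p = 0.000147), and DPP7, a dipeptidyl peptidase (0.73, SE 0.06, limma adjusted p = 0.000135). The chloride and proton exchanger CLCN7 was the 1 of 12 lysosomal membrane genes called in WT minus MM (0.39, SE 0.07, limma adjusted p = 0.0397), and the wild-type form gave more of it in stable PIM1 cells as well (0.81, SE 0.07, limma adjusted p = 0.00013). With median centring 0 of the 12 were called in either comparison, and with the processed signal 0 in WT minus MM. Over all 25473 genes, median centring called 0 and 21 in these comparisons, and the processed signal 78 in WT minus MM.

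In PIM1 minus control, where 25.1% of all genes were called, 16 of the 35 hydrolases were called, 9 higher and 7 lower. GALC, which degrades galactosylceramide, rose from a mean of 9.74 to 11.84 (2.10, SE 0.08, limma adjusted p = 9.89e-07), and NEU1, the partner of CTSA, from 11.67 to 12.55 (0.88, SE 0.06, limma adjusted p = 2.21e-05). Of 18 proton pump subunits 7 were called higher and 1 lower, and of 10 genes for enzyme sorting 5 were called higher and 2 lower. With the filter in all 12 channels, 17 hydrolases, 11 proton pump and 7 sorting genes were called, beside 7326 of 17833 genes. Median centring left 8 hydrolases, 4 proton pump and 2 sorting genes called, beside 8699 of all 25473 genes. It turned the medians of these lists from 0.03, 0.21 and 0.24 to -0.40, -0.40 and -0.35. Among the sorting genes, GNPTAB, a subunit of the enzyme that starts the mannose 6-phosphate tag, was lower (-0.53, SE 0.07, limma adjusted p = 0.000575). Of 11 cystatins and other inhibitors of cathepsins, 2 were called higher and 1 lower, led by CST5 (0.87, SE 0.09, limma adjusted p = 0.000119). Of 7 lysosome regulators, RRAGC, TFEB and TFE3 were called higher, by 0.78, 0.40 and 0.35, but with median centring TFEB and TFE3 turned below 0. Among 11 osteoclast genes 2 were called higher and 2 lower, MMP9 being the lowest (-0.82, SE 0.06, limma adjusted p = 2.53e-05). In WT minus MM, 0 of the proton pump, sorting, inhibitor and regulator genes were called by limma, with 2, 5, 0 and 1 at an unadjusted p under 0.05. Over all 25473 genes, 0.793% were called there and 3037 had such an unadjusted p.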

How the data were processed

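The authors extracted spot intensities with Agilent Feature Extraction 11.0.1.1 and deposited, for each array, raw intensity (median signal and background median), the processed signal and outlier flags. A deposited table gives log2 values and equalled the quantile-normalized log2 median signal to within 0.0844. For each sample the median signal in its own dye was used. Each array's file was the same under both of its samples, in 6 of 6 arrays.

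Outlier spots were left out, and 31486 of 34127 probes were kept, those exceeding in 2 or more of 12 channels the 90th percentile of 153 negative controls. Values were log2 transformed, quantile normalized and taken as the median over probes per gene symbol, matched through RefSeq transcripts of GRCh38.p14 (26377 probes). The 12 samples were fitted by limma 3.58.1 (R 4.3.3), with a mean for each group and no covariate. All p-values are two-sided and Benjamini-Hochberg adjusted over all genes of a comparison. The fit was tested on simulated data. The members and gene lists were chosen with earlier results of these data known. Named are all members with their probes, at most 3 called genes per list with the largest changes, the neighbours of CTSZ within 200 kb and the 5 genes with the highest r with CTSZ. Replicate numbers are those of the slides. Over 15 pairs of groups, deviations on the same slide correlated between 0.05 and 0.83, with 7 pairs above 0.1. Alternatives covered background correction, scaling, the filter, flags, the summary by probe, slide and array blocks, and samples left out. Some genes of the marker lists are not reported here.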

Additional observations from a re-analysis of the deposited data

Results flagged for a closer look

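The difference between WT and MM NFATC1 itself differed between the stable PIM1 and empty vector cells for CTSD, by 0.61 on the log2 scale (limma interaction, adjusted p = 0.0365, in the same direction on both slides). In the fit per probe the same was found for the CTSA probe to NM_001127695, by 0.59 (limma adjusted p = 0.0128), and for the CTSC probe to NM_001814, by 0.47 (limma adjusted p = 0.0314).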

How the results depend on the processing

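With every alternative CTSZ stayed lower with WT than with MM NFATC1. WT minus MM was -0.99 after median centring and -1.51 with the processed signal, and between -1.42 and -1.28 with 1 sample left out. PIM1 + WT minus PIM1 + MM was -1.27 after loess with Aquantile, -1.16 after median centring and -1.79 with the processed signal, and between -1.45 and -1.35 with 1 sample left out. PIM1 minus control stayed called for CTSZ, between -1.71 and -1.15. PIM1 + MM minus PIM1 was 0.34 after loess with Aquantile and 0.82 with the processed signal. Median centring left 0 of the other 8 members called in PIM1 + WT minus PIM1 + MM, the interaction, PIM1 + MM minus PIM1, PIM1 + WT minus WT, PIM1 + MM minus MM and the dye-cancelling contrast. Over all 25473 genes it left 21, 0, 1, 489, 107 and 0 called in these comparisons, in the same order. The cause was not tested. With the filter in all 12 channels the counts were 1 in WT minus MM, 5 in PIM1 + WT minus PIM1 + MM, 4 in the interaction and 2 in the dye-cancelling contrast. With the array as a random block they were 1, 5 and 4 in the first 3 of these. Over all genes, the filter in all 12 channels called 634, 5441, 1475 and 2722 of 17833. The array block called 1230, 6849 and 2478 of 25473, and the main fit 202, 4108, 563 and 1576. The fit per probe called 1 member in WT minus MM, 3 in the interaction and 2 in PIM1 + MM minus PIM1. The probe with the highest mean gave 0 in PIM1 + MM minus PIM1 and 0 in the dye-cancelling contrast, beside 3502 and 1896 of all 25473 genes. In the interaction loess and the deposited values each gave 2, beside 1058 and 636 of all genes. In PIM1 + MM minus PIM1 normexp gave 2, beside 2630 of all genes. Leaving out the array of control and PIM1 replicate 1, chosen after the data were seen, gave 2 in PIM1 + MM minus PIM1 and 1 in WT minus MM. With 1 sample left out, which assumes that a lone sample varies like the other groups, the counts were 3 to 6 in PIM1 minus control, 0 to 0 in the interaction, 1 to 2 in PIM1 + MM minus PIM1 and 0 to 2 in the dye-cancelling contrast. With the replicate block, which here is the slide, 6 of 8 members were called in PIM1 minus control. It gave 3 in PIM1 + WT minus PIM1 + MM and 0 in WT minus MM. Over all 25473 genes this block called 7024, 4707 and 265. No call count of the members moved by over 1.5 times with it. Signs turned for CTSA in PIM1 minus control (-0.53), CTSV in PIM1 + WT minus PIM1 + MM (0.0094) and CTSD in PIM1 + WT minus WT (-0.032), all with median centring, and for CTSA in PIM1 + WT minus WT (-0.018) with its brighter probe, alone or in the fit per probe. Among the 35 lysosomal hydrolases, between 0 and 22 were called in PIM1 + WT minus PIM1 + MM and between 8 and 19 in PIM1 minus control over the alternatives that kept all samples. In both, median centring gave the lowest and the array block the highest count. Of all 25473 genes, these called 21 and 6849 in the first comparison, and 8699 and 8863 in the second. Raw signal over background limits CTSS, which had no measurable level.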
